A study of Homo sapiens with 68 samples.

Results

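The gel regions of the hnRNP C pulldown compared here are 3 in number: 150-250 kDa, 100-150 kDa and 50-75 kDa, with 2 libraries each, 6 of the 68 libraries of the series. The libraries were chosen by their group names, Background_150-250kDa, Background_100-150kDa and Background_50-75kDa. All 6 were made by TLC-CLIP from HEK293T, an established human embryonic kidney cell line. Each used 10000 cells, 0.001 U of RNase and the hnRNP C1/2 (4F4) antibody, so the groups differ by label in the gel region alone. The protocol in the labels describes ultraviolet crosslinking for all of them. The series holds 34 groups of 2 libraries, and the main hnRNP C library from the same number of cells is hnRNPc_10k. The gel region cut for hnRNPc_10k is not given in the sources used here. Another region, 75-100 kDa, was also profiled and serves below as a point of reference.

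hnRNP C is an abundant nuclear protein that binds runs of uridine in newly made transcripts and packages them. In CLIP, ultraviolet light joins a protein to the RNA it touches, the RNA is trimmed with RNase, and the complexes are pulled down and separated on a gel by size. A complex runs above the mass of the bare protein according to the RNA that stays attached. Slices from other parts of the lane therefore sample whatever RNA is recovered there, whether joined to the target or to other proteins. The question of the comparison is which RNAs recur in every slice and which occur in a single one.

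Each library came as a list of peaks, stretches of a gene where reads pile up. A peak carries a gene identifier, a p-value and a last number, read here as its number of reads. The sequencing depth is unknown, and read numbers are unscaled between libraries. The labels do not say whether replicates came from separate cultures, so the spread between them may be technical. Gene names could not be assigned, because 0 identifiers matched a given table. RNAs are therefore described by identifier or by position on hg19, the build named in the submitters' processing notes.

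The 3 regions gave short lists with nearly the same number of well covered peaks. The 150-250 kDa region listed 734 peaks in replicate 1 and 1802 in replicate 2, the 100-150 kDa region 303 and 404, and the 50-75 kDa region 452 and 463. Replicate 2 of 150-250 kDa stood apart from all the others. Of its peaks, 55.0% had 5 reads, the fewest in that list, against 40.6% at the minimum of 6 reads in replicate 1 and at most 20.0% at the minimum in the 4 other libraries. Peaks with 10 or more reads numbered 232 and 188 at 150-250 kDa, 191 and 234 at 100-150 kDa, and 233 and 236 at 50-75 kDa. On that count the 100-150 kDa range overlapped both others, and the 50-75 kDa values lay just above those of 150-250 kDa. The excess of the 150-250 kDa lists thus lay in peaks with fewer than 10 reads.

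The mean number of peaks was 1268 ± 755 (SD, n = 2) at 150-250 kDa, 353.5 ± 71.4 at 100-150 kDa and 457.5 ± 7.78 at 50-75 kDa. The widest gap, between 150-250 and 100-150 kDa, was 1.72 on the log2 scale (exact permutation test over the 6 libraries, p = 0.0667, Benjamini-Hochberg adjusted p = 0.0833 over 5 tests). With 15 ways to split 6 libraries into 3 pairs, 0.0667 is the smallest p the design allows and 0.05 cannot be reached. Without replicate 2 of 150-250 kDa the gap was 1.07, and without replicate 1 it was 2.36. Among peaks with a deposited p-value below 1e-05 it fell to 0.32.

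Peak width at 150-250 kDa overlapped that of both other regions. The median width was 41 and 34 nt at 150-250 kDa, 32 and 36 nt at 100-150 kDa, and 41 and 38 nt at 50-75 kDa. The gap of 5.5 nt between the 50-75 and 100-150 kDa means was within the range seen between replicates (exact permutation p = 0.467, adjusted p = 0.467). The gap was 9 nt among peaks with p below 1e-05 (exact permutation p = 0.2) and 9.25 nt over the 200 peaks of smallest p (exact permutation p = 0.4). Once peaks less than 30 nt apart were joined, it was 4.5 nt and had the smallest p possible (exact permutation p = 0.0667). For comparison, the median width was 55 nt in both hnRNPc_10k libraries.

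Median reads per peak were 7 and 5 at 150-250 kDa, 14 and 11.5 at 100-150 kDa, and 10 and 10 at 50-75 kDa. The 3 regions did not overlap. The difference of 6.75 reads between 100-150 and 150-250 kDa had the smallest p possible (exact permutation p = 0.0667, adjusted p = 0.0833). Over the 200 peaks of smallest p in each library, the difference was 2.25 reads (exact permutation p = 0.333).

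**Figure D1:**
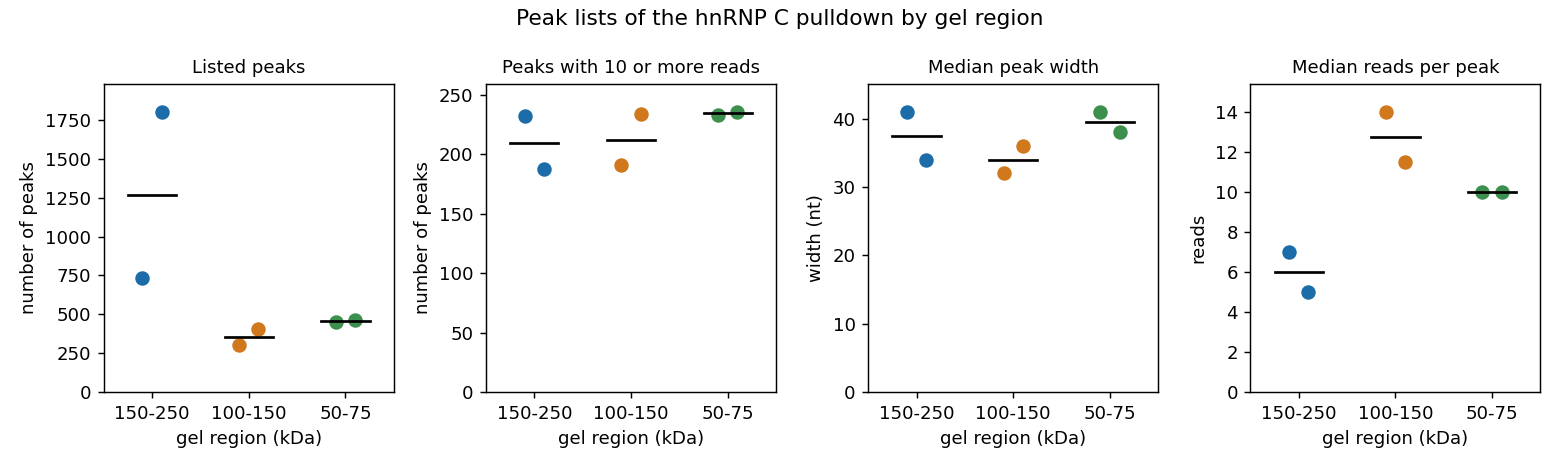
Number of listed peaks, number of peaks with 10 or more reads, median peak width in nt and median reads per peak, by gel region in kDa. Points are the 2 libraries of a region and bars their mean; the list lengths span 303 to 1802 peaks, while the peaks with 10 or more reads span 188 to 236.

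As a percent of the genes in either list, replicates shared more than libraries of different regions, with 1 exception. The 2 libraries of 100-150 kDa had 37.6% of their joined gene list in common, and those of 50-75 kDa 35.8%. The 2 libraries of 150-250 kDa, with unequal lists of 397 and 914 genes, shared only 11.9%. The 12 pairs from different regions shared 7.57% to 32.7%. Replicate 1 of 150-250 kDa had a larger percent in common with each library of the other regions (16.7% to 17.6%) than with its own replicate. In number of genes there was no exception, though that number can grow with list length and the 150-250 kDa lists were the longest. The 150-250 kDa replicates shared 139 genes, those of 100-150 kDa 92 and those of 50-75 kDa 118. Pairs from different regions shared 74 to 90. Over the 3 regions the mean was 28.4% within regions and 17.6% between them (exact permutation test over 15 pairings, one-sided, p = 0.0667, adjusted p = 0.0833).

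Positions gave the same order. On average 38.8% of a library's peaks were overlapped by its replicate and 31.1% by a library of another region, on the same strand by at least 1 nt (exact permutation test, one-sided, p = 0.0667, adjusted p = 0.0833). Peaks moved by 1000 nt reached the same p, with a gap of 0.842 in place of 7.76 percentage points. The p-value alone therefore cannot separate matching sites from matching surroundings. The replicates of 100-150 kDa overlapped by 50.5% and those of 50-75 kDa by 49.5%. The highest value between regions, 46.0%, joined replicate 1 of 100-150 kDa to replicate 1 of 50-75 kDa, close to the values within these regions. The replicates of 150-250 kDa overlapped by 16.4%, below every pair of libraries from different regions, the lowest of which was 18.2%. That value is the mean of 23.3% of the peaks of replicate 1 and 9.43% of the longer list of replicate 2. Libraries of other regions overlapped fewer in each: 20.7% to 21.7% of the peaks of replicate 1 and 6.77% to 7.44% of those of replicate 2.

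**Figure D2:**
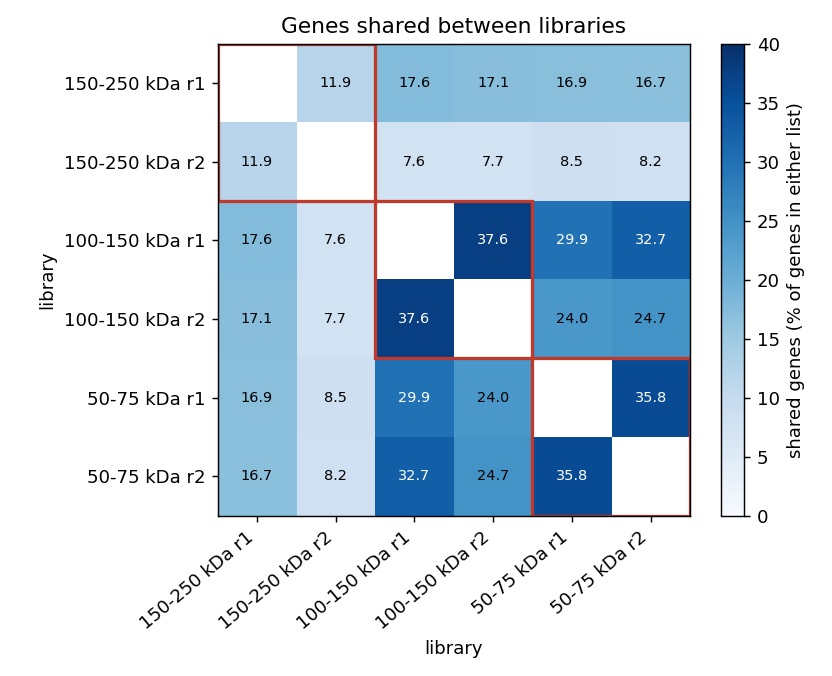
Genes shared between each pair of the 6 libraries, as a percent of the genes in either list; red frames hold the 2 replicates of a region. The framed values are 11.9%, 37.6% and 35.8%, and replicate 2 of 150-250 kDa shares 11.9% or less with every other library.

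Of 1452 genes with a peak in any of the 6 lists, 43 (2.96%) were listed in both libraries of all 3 regions. A single library alone listed 1162 genes, 730 of them replicate 2 of 150-250 kDa. All 43 recurring genes were also listed in the 75-100 kDa region, against 905 of the 1452 genes. In hnRNPc_10k, 41 of the 43 were listed, close to the 1364 of 1452 over all genes. The 15 recurring genes with the largest shares of reads held 55.0% and 29.3% of the summed reads at 150-250 kDa, 71.0% and 68.7% at 100-150 kDa, and 77.4% and 74.0% at 50-75 kDa. These sums count a read number again where a split peak, or a peak listed under several genes, repeats it.

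Genes listed in both libraries of 1 region and in none of the 4 other libraries numbered 57 (3.93%) at 150-250 kDa, 10 (0.689%) at 100-150 kDa and 26 (1.79%) at 50-75 kDa. Of the 57 genes, 44 were listed in the 75-100 kDa region and 54 in hnRNPc_10k, the latter near the share over all genes given above. At 100-150 kDa the figures were 5 and 6 of 10 genes, and at 50-75 kDa 11 and 20 of 26, below the shares over all genes in both lists. Absence from a short list is a weak criterion for a gene. When 2 or more peaks in both libraries were required, 23, 3 and 2 genes were left in the order of the regions. A single site can pass this rule when its peak is split, and can count for several genes. For example, chr6:31379177-31379197 gave 3 peaks in each 150-250 kDa library under each of 2 gene identifiers.

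Peaks that overlapped or abutted on the same strand were merged into 2051 positions, each given the highest of its peaks' read numbers in a library. Of these, 59 (2.88%) were present in all 6 libraries. They made up 11.5% and 5.39% of the positions at 150-250 kDa, 27.1% and 19.5% at 100-150 kDa, and 16.4% and 16.6% at 50-75 kDa. Their share of reads was larger, at 44.3% and 27.0%, 55.1% and 53.7%, and 46.1% and 45.4%. The RNAs present in every slice thus carried from 44.3% to 55.1% of the reads in 5 of the 6 libraries, and less in replicate 2 of 150-250 kDa. In contrast, 1719 positions (83.8%) occurred in 1 library, with a median of 6 reads.

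Peaks inside the 59 positions were about as wide as the other peaks, but higher. Higher reads are in part built in, since each position had to be listed in all 6 libraries, where the minimum was 5 or 6 reads. Median reads of positions rose with the number of libraries, at 6, 9, 15, 16, 18 and 32.5 for 1 to 6 libraries. At 150-250 kDa, peaks inside had a median width of 43 and 38.5 nt, against 41 and 33 nt outside. At 100-150 kDa the widths were 37 and 34 nt inside and 30 and 36 nt outside, and at 50-75 kDa 39.5 and 42 nt against 42 and 37 nt. Median reads inside were 35 and 25.5, 35 and 35, and 46.5 and 40, against 7 and 5, 9 and 8, and 8 and 8 outside. The inner and outer medians of reads did not overlap in any region.

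The recurring positions were concentrated on 3 kinds of RNA. The mitochondrial chromosome held 13 of the 59, against 38 of all 2051 positions. The gene ENSG00000229807, on the minus strand of chromosome X (peaks within chrX:73040992-73072548), held another 13, and single libraries had 45 to 58 positions in it. The gene ENSG00000251562, on the plus strand of chromosome 11 (peaks within chr11:65266579-65273457), held 5, and single libraries had 16 to 24 positions in it. Across the rest of the series, recurring positions were common: the median position was found in 47 of the 60 libraries outside the gel regions. Of the 59, 9 were found in all 60, and 57 had a peak in at least 1 library without crosslinking. Over all 2051 positions the median was 9 libraries, 17 were in all 60, and 1184 had a peak in at least 1 library without crosslinking. Both hnRNPc_10k libraries had 47 of the 59, against 528 of all 2051 positions. Both 75-100 kDa libraries had 48 of the 59, against 154 of 2051, and at least 1 of them had 57, against 355 of 2051.

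The mitochondrial RNA formed the highest peaks in the slices. Mitochondria transcribe their own small circular genome, and ribosomal RNA makes up much of the RNA it yields. Both mitochondrial ribosomal RNA genes lie in the stretch where the leading peaks were found, chrM:707-2894 on the plus strand. The highest position, chrM:2763-2894 in ENSG00000210082, had 367 and 245 reads at 150-250 kDa, 335 and 491 at 100-150 kDa, and 356 and 402 at 50-75 kDa. The 3 regions overlapped at this position. It held the highest peak of every library except replicate 2 of 150-250 kDa.

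The next 4 positions by read rank were in the same gene. chrM:1706-1778 had 263 and 149, 240 and 267, and 204 and 204 reads in the same order of libraries. chrM:2208-2292 had 214 and 137, 189 and 220, and 174 and 187 reads. chrM:1827-1912 had 253 and 123, 194 and 209, and 102 and 141 reads. At each of these the unscaled reads of 150-250 kDa spanned values of the other regions, and replicate 2 of 150-250 kDa was below its own replicate. chrM:2327-2373 had 167 and 88, 200 and 200, and 175 and 150 reads, highest in both libraries of 100-150 kDa. The first 3 of these 4 were present in all 60 other libraries, and the last in 17.

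As a share of all listed reads, after split peaks were joined, the mitochondrial chromosome held 28.6% and 13.6% at 150-250 kDa, 43.0% and 37.6% at 100-150 kDa, and 27.7% and 26.6% at 50-75 kDa. Both 100-150 kDa libraries were above the other 4. The means were 21.1% ± 10.6 (SD, n = 2), 40.3% ± 3.81 and 27.2% ± 0.748. The 150-250 kDa value rests on 2 libraries that differ about as much as the regions do. A peak at chr1:569901-569964 (plus), in a stretch of the nuclear genome that is a copy of mitochondrial DNA, was also present throughout, with 15 and 8, 15 and 9, and 12 and 11 reads. Reads of mitochondrial RNA can align to such a copy.

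The chromosome X gene ENSG00000229807 took a larger share at 50-75 kDa. Its joined positions numbered 51 and 48 at 150-250 kDa, 45 and 54 at 100-150 kDa, and 56 and 58 at 50-75 kDa. Its share of listed reads was 16.5% and 8.48%, 17.1% and 17.6%, and 27.6% and 28.3%. Both 50-75 kDa libraries were above the 4 others, with a mean of 27.9% ± 0.510 (SD, n = 2) against 17.4% ± 0.390 at 100-150 kDa and 12.5% ± 5.71 at 150-250 kDa. The gain was uneven along the gene. chrX:73043517-73043694 had 32 and 16, 25 and 24, and 83 and 101 reads, so both 50-75 kDa libraries were clear of all the rest. The widest position of the gene, chrX:73071288-73071759, had 101 and 71, 72 and 97, and 118 and 135 reads. chrX:73072426-73072548 had 35 and 37, 23 and 38, and 36 and 36 reads, with no such gap.

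The chromosome 11 gene ENSG00000251562 also took its largest share at 50-75 kDa. Its share was 5.69% and 3.34% at 150-250 kDa, 4.22% and 4.47% at 100-150 kDa, and 8.01% and 8.38% at 50-75 kDa. The 50-75 kDa libraries were again above the 4 others, and the other regions overlapped. Its positions still varied among themselves. chr11:65268491-65268608 had 45 and 17, 22 and 22, and 62 and 46 reads, while chr11:65271315-65271405 had 38 and 29, 12 and 18, and 28 and 31.

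A further RNA with a larger share at 50-75 kDa came from another gene on the minus strand of chromosome X. This gene, with peaks within chrX:107965874-107975722, held 1.74% and 0.884% of reads at 150-250 kDa, 0.713% and 1.85% at 100-150 kDa, and 4.60% and 4.22% at 50-75 kDa. It had 20 and 19 joined positions at 50-75 kDa against 3 to 12 elsewhere. The gene with peaks within chr22:38879728-38887998 (minus) held 1.15% and 0.974%, 1.26% and 2.12%, and 2.60% and 2.29%. Its 50-75 kDa libraries were also the highest, though by less.

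ENSG00000202198 was a single compact position, chr6:52860639-52860745 (plus), found in all 60 other libraries. It had 139 and 128 reads at 150-250 kDa, 62 and 114 at 100-150 kDa, and 199 and 172 at 50-75 kDa. The 3 regions did not overlap. Its share of reads was 1.47% and 1.29%, 0.921% and 1.42%, and 2.37% and 2.04%, with 50-75 kDa above the rest and the other regions overlapping.

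**Figure D3:**
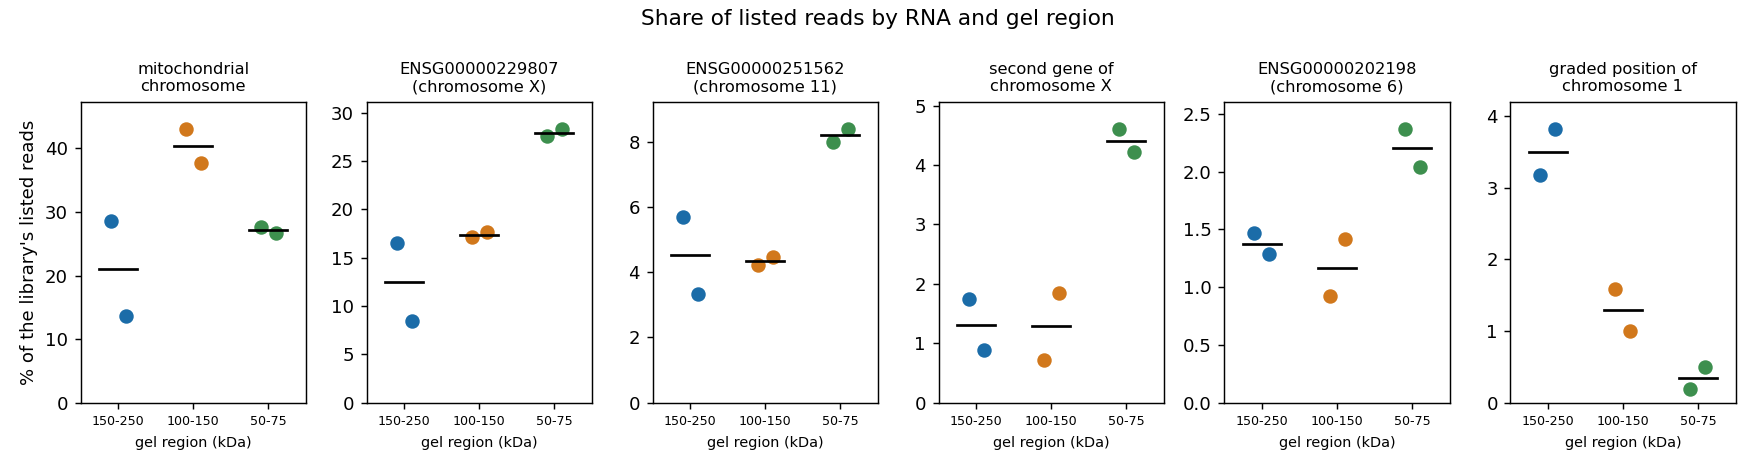
Share of each library's listed reads, in percent, for the mitochondrial chromosome and 5 single RNAs, by gel region in kDa. Points are the 2 libraries of a region and bars their mean; 4 of the RNAs are highest in both 50-75 kDa libraries, the mitochondrial share is highest in both 100-150 kDa libraries (43.0% and 37.6%), and the chromosome 1 position falls from 3.18% and 3.82% to 0.190% and 0.498%. Each panel has its own scale.

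Across the 3 regions, 1 narrow position fell from the top of the gel to the bottom. chr1:66429524-66429544 (plus, 21 nt) had 301 and 380 reads at 150-250 kDa, 107 and 81 at 100-150 kDa, and 16 and 42 at 50-75 kDa. The 3 regions did not overlap, and the lowest 150-250 kDa value was above the highest 100-150 kDa value in reads and in share alike. It was the highest peak of replicate 2 of 150-250 kDa. Its share of reads was 3.50% ± 0.453 (SD, n = 2), 1.30% ± 0.413 and 0.344% ± 0.218. The 75-100 kDa libraries, which lie between 100-150 and 50-75 kDa but have longer lists, had 128 and 163 reads there. Both values were above those of 100-150 kDa, so with that region included the unscaled reads did not fall steadily. The position was present in 13 of the 60 other libraries and in none without crosslinking; hnRNPc_10k had 28 and 10 reads, and hnRNPc_1k, made from fewer cells, 44 and 61.

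The opposite pattern, low at the top of the gel, was seen at a position of 20 nt, chr3:111176268-111176287 (plus). It had 76 and 50 reads at 150-250 kDa, 100 and 142 at 100-150 kDa, and 113 and 145 at 50-75 kDa. The 150-250 kDa libraries were below the 4 others, which overlapped. The 75-100 kDa libraries had 31 and 19 reads there, lower still, so the pattern did not extend to that region. It was absent from both hnRNPc_10k libraries and present in 17 of the 60 others, 13 of them without crosslinking.

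Some recurring positions were odd in their own right. chr2:133013356-133013386 (minus) had 6 and 6, 7 and 7, and 5 and 6 reads, near the minimum of every list. It was in none of the 60 other libraries and not in the 75-100 kDa region. A pair on the plus strand of chromosome 9, chr9:124536684-124536692 and chr9:124538476-124538491, had the same reads in 5 libraries, 9, 5, 15, 13 and 6, and 25 and 26 in replicate 2 of 100-150 kDa. The lists do not show whether the same reads were counted at both places.

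**Figure D4:**
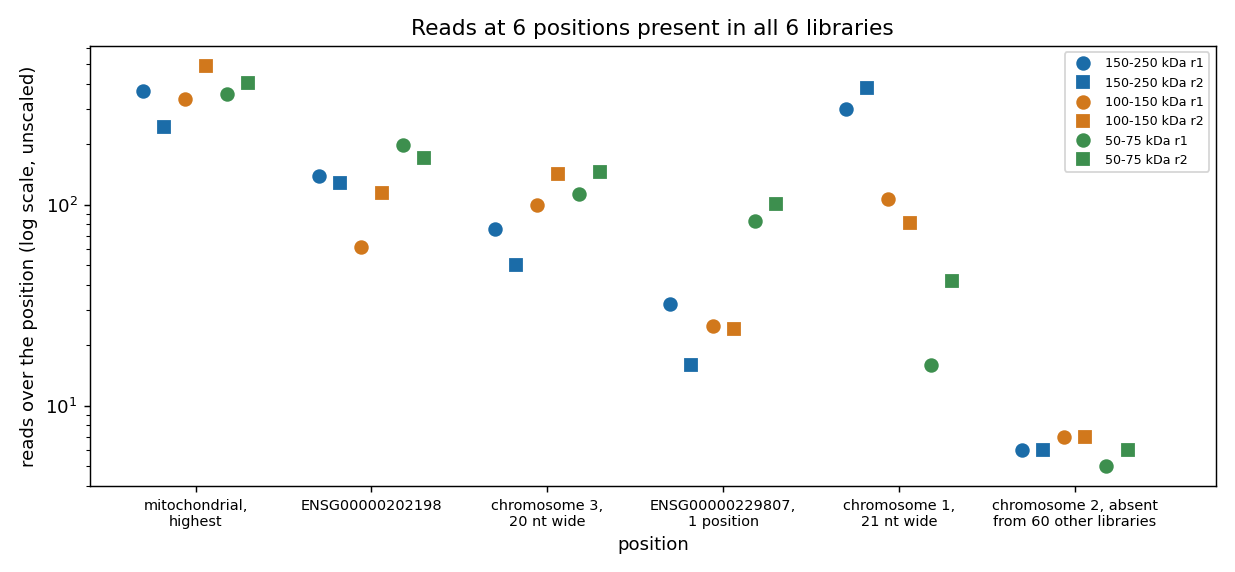
Reads (log scale, unscaled between libraries) at 6 positions present in all 6 libraries; colours are gel regions, circles replicate 1 and squares replicate 2. The highest mitochondrial position overlaps between regions, the chromosome 1 position falls from 380 to 16 reads across the regions shown, and the chromosome 2 position stays between 5 and 7.

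To set unequal lists aside, each of the 59 positions was expressed as a share of the reads at all 59, and regions were compared by whether both libraries lay outside the range of the 4 others. For 50-75 kDa, 12 positions were higher (20.3%) and 9 lower (15.3%). For 100-150 kDa, 10 were higher (16.9%) and 5 lower (8.47%), and for 150-250 kDa, 4 were higher (6.78%) and 9 lower (15.3%). With scaling by the median log2 ratio instead, 9 of the 12, 7 of the 10 and all 4 of the higher calls held. If every order of the 6 libraries were equally likely, 2 given libraries would be the highest, or the lowest, in 1 of 15 cases. The 6.78% higher at 150-250 kDa and the 8.47% lower at 100-150 kDa were near that share. These counts describe the 59 positions and carry no test. Positions in ENSG00000229807 made up 6 of the 12 that were higher at 50-75 kDa, and 3 lay in ENSG00000251562. With the second scaling the numbers were 6 and 1.

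Positions in both libraries of 1 region and in no other of the 6 libraries numbered 21 (1.02%) at 150-250 kDa, 18 (0.878%) at 100-150 kDa and 43 (2.1%) at 50-75 kDa. They were lower than the recurring ones, with a median of 9.5, 11.5 and 9 reads against 32.5. Their presence in the series was lower as well, with a median of 3, 2 and 16 of the 60 other libraries against 47. Over all 2051 positions the median was 9 libraries. Both hnRNPc_10k libraries had a peak at 9 of the 21, 3 of the 18 and 15 of the 43, or 42.9%, 16.7% and 34.9%, against 25.7% of all positions. Of all positions, 1719 were in 1 library, so a closer set is the 145 in 2 of the 6 libraries, which include these. Its median was 9 reads and 21 of the 60 other libraries, and 49.0% were in both hnRNPc_10k libraries. In the series and in hnRNPc_10k, the one-region positions of all 3 regions were below that set.

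One-region positions that were rare in the rest of the series had smaller median widths than the others, and only at 150-250 kDa were the widths fully apart. Of the 21 at 150-250 kDa, 12 were in 5 or fewer of the 60 other libraries, and all 12 were 14 to 30 nt wide, with a median of 20 nt. The other 9 were 48 to 133 nt wide, with a median of 72 nt. At 100-150 kDa, 12 positions were in 5 or fewer libraries, with a median of 21.5 nt (15 to 38 nt), against 69 nt (18 to 108 nt) for the other 6. At 50-75 kDa the medians were 21 nt (18 to 38 nt) for 17 positions and 49.5 nt (11 to 155 nt) for 26, of which 9 were 30 nt or less. The rarely seen positions had no peak in any of the 60 other libraries in 3, 6 and 10 cases. Over all 2051 positions, 815 were in 5 or fewer of these libraries and 287 in none. The share in 5 or fewer at 50-75 kDa and the share in none at 150-250 kDa were near those over all positions. Of the 145 positions in 2 of the 6 libraries, which include the one-region ones, 47 were in 5 or fewer and 21 in none.

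**Figure D5:**
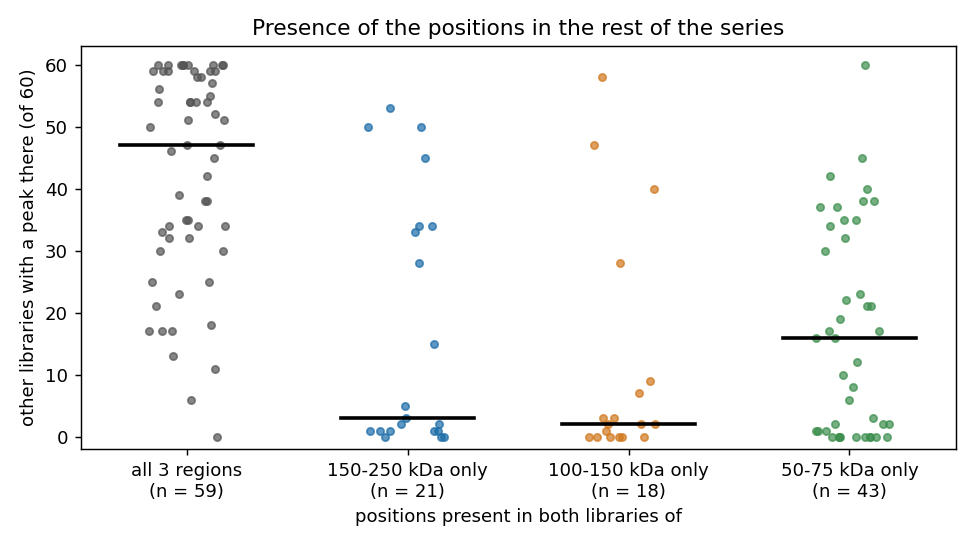
Number of the 60 libraries outside the gel regions with a peak at each position, for the 59 positions of all 3 regions and for those in both libraries of 1 region only (21, 18 and 43). Points are positions, spread sideways at random, and bars are medians of 47, 3, 2 and 16. Many one-region positions lie at 5 or fewer libraries, as do 815 of all 2051 positions.

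At 150-250 kDa, the strongest one-region position was chr6:31379177-31379197 (plus, 21 nt), with 125 and 162 reads. Both hnRNPc_10k libraries had it, at 13 and 5 reads, as did 3 libraries titled hnRNPc_500, and the 75-100 kDa region did not. Wider positions followed in the gene ENSG00000251562: chr11:65268318-65268403 had 40 and 20 reads and was in 53 of the 60 other libraries. A narrow pair on chromosome 7, chr7:43237514-43237527 and chr7:43504258-43504273 (plus), had the same reads, 8 and 9, at both places. Elsewhere in the 60 libraries it was in both replicates of RBFOX2_1k alone.

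At 100-150 kDa, the leading one-region positions were each 18 nt wide and recurred in 1 other hnRNP C group. chr11:122051216-122051233 (minus) had 73 and 63 reads, and chr5:106727682-106727699 (minus) had 52 and 62. Outside these libraries, both were listed in the 2 hnRNPc_1k replicates and in none of the rest; their reads there were 37 and 27, and 34 and 32. chr21:30850448-30850465 (plus) had 34 and 27 reads and was in 9 other libraries, hnRNPc_1k among them with 18 and 11 reads. Of the 12 positions in 5 or fewer other libraries, 4 were in hnRNPc_1k, and none was in hnRNPc_10k. At 50-75 kDa, none of 17 such positions was in either group, and at 150-250 kDa, 3 of 12 were in hnRNPc_10k and none in hnRNPc_1k.

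At 50-75 kDa, the leading one-region positions were wider and belonged to RNAs already named. chrX:73067799-73067861 in ENSG00000229807 had 38 and 47 reads, and chr11:65266705-65266778 in ENSG00000251562 had 36 and 32. The minus strand of chromosome X between 107968270 and 107975750 held 7 of the 43, led by chrX:107973763-107973832 with 34 and 32 reads and chrX:107969435-107969514 with 32 and 24. That stretch, bounded by these 7 positions themselves, held 1 of the 21 positions of 150-250 kDa and none of the 18 of 100-150 kDa. Just outside it on the same strand lay a 100-150 kDa position, chrX:107964122-107964221, with 12 and 12 reads. The recurring position chrX:107963736-107963999 lay beside that one. chrM:10007-10030 (plus) had 25 and 35 reads and was the 1 mitochondrial position of the 43.

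Set against the main hnRNP C list, 45.4% and 24.8% of the 150-250 kDa peaks were overlapped by a peak of hnRNPc_10k, 60.7% and 58.7% of the 100-150 kDa peaks, and 65.9% and 55.9% of the 50-75 kDa peaks. The means were 35.1% ± 14.5 (SD, n = 2), 59.7% ± 1.5 and 60.9% ± 7.1. When the peaks were moved by 1000 nt, 16.4%, 23.6% and 28.1% still overlapped, which is the background that hnRNPc_10k, with 264496 and 267111 peaks, gives nearby. Among peaks with 10 or more reads the regions were close, at 73.7% and 72.3%, 71.2% and 69.2%, and 77.7% and 69.5%. Among peaks with fewer reads, 32.3% and 19.3% of those at 150-250 kDa were overlapped, 42.9% and 44.1% at 100-150 kDa, and 53.4% and 41.9% at 50-75 kDa.

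Other lists overlapped the peaks as well. The hnRNP C libraries without crosslinking, noUV_hnRNPc, also differ by label in cells (50000) and RNase (0.005 U). They overlapped 37.2% ± 14.4 (SD, n = 2), 62.8% ± 3.1 and 60.3% ± 5.8 of the peaks of the 3 regions, and 20.1%, 27.0% and 32.3% of moved peaks. RBFOX2_10k, from the pulldown of another RNA-binding protein, overlapped 24.5% ± 9.5, 47.3% ± 0.4 and 43.2% ± 1.8, from a shorter list than hnRNPc_10k. It overlapped 9.68%, 16.30% and 18.04% of moved peaks, also below hnRNPc_10k. The lower overlap with RBFOX2_10k therefore does not show that the slices matched hnRNPc_10k more closely. The 75-100 kDa region, with 6716 and 4875 peaks, overlapped 32.0% and 9.9% of the peaks at 150-250 kDa, 62.4% and 52.2% at 100-150 kDa, and 56.4% and 50.5% at 50-75 kDa. In each of these comparisons both 150-250 kDa libraries were below the 4 others. The share of peaks at the minimum of reads was highest in the same 2 libraries, and its part in the result was not tested.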

How the data were processed

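TLC-CLIP peak lists of 6 libraries (3 gel regions, 2 each) were compared with one another and with lists of the same series. Each list has 8 columns and no header, and was called per library, with CLIPper according to the file names. The submitters' processing notes name hg19, STAR 2.7.3a, UMI-tools 1.0.1 and bcl2fastq. The p-value of each peak is the deposited value, with no stated adjustment. Gene identifier and read number were taken from the peak name the authors deposited; the meaning of that last number is not stated. Depth is unknown, so no interval or detection limit could be computed.

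Peaks overlapping or abutting on a strand were merged into positions. Overlap needed 1 nt on the same strand, and its background came from peaks moved by 1000 nt. The 5 tests were exact permutation tests (Python 3.11.15, pandas 2.3.3, numpy 2.4.6), tested on simulated data, with Benjamini-Hochberg adjustment. Named genes were the 15 recurring ones with the highest median share of reads and the 5 per region with the most reads; at most 4 identifiers are printed and other genes are given by position. Named positions were the 5 recurring ones of highest read rank and each library's highest peak; others named were chosen after their values were seen. Gene lists by symbol (nuclear noncoding RNAs, hnRNP genes, messenger RNAs, ribosomal protein and histone genes, snoRNA hosts) were not used, since 0 identifiers matched a symbol. Members and lists were chosen with earlier results of these data known.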

Additional observations from a re-analysis of the deposited data

How the results depend on the processing

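Alternatives marked as added were chosen after seeing the data. The 5 tests kept their direction under every alternative run, and no adjusted value could pass 0.05. Over the alternatives p ranged from 0.0667 to 0.333 for peak number, 0.0667 to 0.867 for width and 0.0667 to 0.333 for reads. For both replicate matches the exact permutation p was 0.0667 throughout. For positions this includes the peaks moved by 1000 nt, a background setting, with a gap of 0.842 against 7.76 percentage points. That p-value therefore cannot separate matching sites from matching surroundings. With 1 library left out, the log2 gap in peak number ranged from 1.07 to 2.36, the width gap from 3.5 to 7.5 nt and the reads gap from 5.5 to 8. The replicate numbers did not pair the libraries (correlations of 0.291, 0.219 and -0.11 between same-numbered libraries). With the replicate number as a block, the exact permutation p was 0.167 for the log2 gap of 1.72, 0.667 for the 5.5 nt of width and 0.167 for the 6.75 reads; 0.167 is the smallest possible.

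Counts of genes depended on the rule. Genes of all 3 regions numbered 98 when 1 library per region sufficed, 26 among peaks with p below 1e-05, and 46 to 52 with 1 library left out. One-region genes numbered 23, 3 and 2 with 2 or more peaks required, and 13, 5 and 15 when also absent from 75-100 kDa (150-250, 100-150 and 50-75 kDa). At p below 1e-05 they were 13 in each of the 3 regions. With 1 library left out (added) they ranged from 59 to 787, 11 to 75 and 28 to 96, since the remaining library of a region then decides alone: 787 and 272 without replicates 1 and 2 of 150-250 kDa, 75 and 27 without those of 100-150 kDa, and 91 and 96 without those of 50-75 kDa. Positions of all 3 regions numbered 131 when 1 library per region sufficed and 60 to 69 with 1 left out (added).

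Overlap with hnRNPc_10k was 59.1%, 66.5% and 69.2% among peaks with p below 1e-05. The moved peaks, 16.4%, 23.6% and 28.1%, are those of the full lists. No moved value is given for the peaks with p below 1e-05. Overlap of the full lists was 55.3% at 100-150 kDa where at least 0.5 of the shorter peak had to be shared. With 1 library left out it was 24.8% to 45.4%, 58.7% to 60.7% and 55.9% to 65.9%. With RBFOX2_10k in its place (added) it was 24.5%, 47.3% and 43.2%, and 9.68%, 16.30% and 18.04% for moved peaks. With the best 100000 peaks of hnRNPc_10k (added) the overlap was 24.9%, 52.6% and 54.8% in the order of the regions. Without the mitochondrial positions (added), 2 recurring positions were lower at 100-150 kDa and 5 at 50-75 kDa.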
